A study of Homo sapiens with 6 samples.

Results

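To follow individual hnRNP A1 binding sites that recurred in every library, the clusters of 4 genes were examined, UCHL5, KIF14, CUL3 and IQCB1. Each gene held an intronic site, on the minus strand, with a cluster in each of the 6 PAR-CLIP libraries. The members were the clusters at these 4 shared sites plus every other cluster that lay in, or was named for, the same genes. They numbered 29 of the 16269 clusters in the series, with 24 at the shared sites and 5 elsewhere, all 5 in CUL3. The sites were selected on their presence in the cluster lists of all 6 libraries, so that presence is a description and was not tested. The data were lists of clusters called in each library, which gave where each cluster lay and its strand, without read numbers. The libraries came from HEK293T cells, a human embryonic kidney line, transiently expressing myc-tagged hnRNP A1 from plasmids, fed 4-thiouridine, cross-linked with ultraviolet light and immunoprecipitated with a rabbit anti-myc antibody. Complexes of 3 kinds were separated. A1dm was the monomeric band of the mutant with the substitutions R75D and R88D, and A1 the monomeric WT band. A1-HMW was the high molecular weight band of the WT protein (labelled as dimeric complexes), which the study describes as possibly dimeric. Each kind had 2 libraries. All 3 groups therefore shared the tag, the antibody and expression from a plasmid on top of the cells' own hnRNP A1.

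hnRNP A1 is an abundant nuclear protein that binds pre-mRNA through tandem RNA recognition motifs and is best known as a regulator of splice site choice. It is classically associated with UAG-containing elements. PAR-CLIP places a cluster where the uridine analog was cross-linked to the protein, which leaves T-to-C changes in the reads, so a cluster needs a T in the reference sequence. UCHL5 encodes a deubiquitinase that works on the proteasome and is also found with the INO80 chromatin remodeler. KIF14 encodes a mitotic kinesin required for cytokinesis. CUL3 encodes the scaffold of ubiquitin ligases that recruit substrates through BTB adaptor proteins. IQCB1 encodes nephrocystin-5, a calmodulin-binding protein of the ciliary transition zone whose loss causes kidney and retinal disease.

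The sequences of the 4 shared sites are given with 60 nt on either side, to show what they had in common and where it ended. They were read from the GRCh37 reference (the assembly of hg19), 5′ to 3′ on the transcribed strand, which is the minus strand. Capitals mark the bases covered by the clusters of all 6 libraries.
UCHL5, chr1:193016846-193016988: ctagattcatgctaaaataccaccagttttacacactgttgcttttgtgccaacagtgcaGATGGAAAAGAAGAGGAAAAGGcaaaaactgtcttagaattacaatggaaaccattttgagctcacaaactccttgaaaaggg
KIF14, chr1:200550653-200550797: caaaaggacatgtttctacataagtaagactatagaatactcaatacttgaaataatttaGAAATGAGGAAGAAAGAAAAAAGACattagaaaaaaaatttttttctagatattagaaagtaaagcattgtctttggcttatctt
CUL3, chr2:225375466-225375611: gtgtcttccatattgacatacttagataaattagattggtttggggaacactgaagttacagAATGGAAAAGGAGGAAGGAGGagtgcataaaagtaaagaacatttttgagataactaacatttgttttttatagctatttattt
IQCB1, chr3:121549511-121549655: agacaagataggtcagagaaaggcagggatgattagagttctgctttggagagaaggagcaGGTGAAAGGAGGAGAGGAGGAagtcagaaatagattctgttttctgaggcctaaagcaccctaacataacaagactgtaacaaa
The stretch common to the libraries consisted of A and G at all 4 sites apart from a single T near its 5′ end and, in KIF14, a C at its 3′ end. This stretch, common to all 6 libraries, was 22 nt in UCHL5, 25 nt in KIF14, 21 nt in CUL3 and 21 nt in IQCB1, and each such stretch occurred at 1 place in the genome. Its purine content was 95.5% in UCHL5, 92.0% in KIF14, 95.2% in CUL3 and 95.2% in IQCB1. The balance of the purines differed among the genes, since G made up 28.0% of the KIF14 stretch, 40.9% in UCHL5, 47.6% in CUL3 and 57.1% in IQCB1.

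The UCHL5 site lay on chromosome 1 from 193016906 to 193016928, in intron 3 of 10 of ENST00000367454. This intron was 20088 nt long, and the site was 1947 nt from the exon upstream and 18118 nt from the exon downstream. Of the 13 annotated UCHL5 transcripts, 7 had an intron there and 0 an exon. In the deposited annotation none of its 6 clusters carried the name UCHL5. They were named snoU109, for a small nucleolar RNA gene whose start lay 9628 nt away (9627 nt for A1 replicate 2), because that annotation names the gene of the nearest transcription start.

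The KIF14 site lay on chromosome 1 from 200550713 to 200550737, in intron 19 of 29 of ENST00000367350. It was the one shared site close to a downstream exon, 290 nt away in an intron of 4806 nt. Both annotated transcripts had an intron there.

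The CUL3 shared site lay on chromosome 2 from 225375526 to 225375551, in intron 6 of 15 of ENST00000264414, which was 4350 nt long. The exon upstream was 519 nt away and the exon downstream 3805 nt away. The deposited annotation called this site a transcription termination site, and the nearest end of an annotated CUL3 transcript was 629 nt from it. The transcription start nearest to it in that annotation, 588 to 590 nt away, was also one of CUL3. Of the 15 CUL3 transcripts, 5 had an intron there and 0 an exon.

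The IQCB1 site lay on chromosome 3 from 121549571 to 121549595, in intron 2 of 14 of ENST00000310864. It was 4.31 kb from the transcript start, 3642 nt from the exon upstream and 1751 nt from the exon downstream. Of the 7 IQCB1 transcripts, 6 had an intron there and 0 an exon. At none of the 4 sites did another annotated gene overlap on either strand, and the 4 genes held 0 clusters on the opposite strand.

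Of the 16269 clusters in the 6 lists, 10140 were intronic. Merged by overlap of at least 1 nt on the same strand, the 16269 clusters formed 11416 regions, of which 8 (0.0701%) held a cluster in all 6 libraries. Of the 7019 intronic regions, 5 (0.0712%) did so, the 4 sites described here and one in SNRPD3, which encodes a core protein of the spliceosomal snRNPs. The other 3 regions were exonic, in SUPT16H, TUG1 and EIF4G1. For A1dm the members were 4 of 232 and 4 of 596 clusters, for A1-HMW 5 of 671 and 5 of 865, and for A1 5 of 5805 and 6 of 8100. The deposited lists give no read numbers, the study's own table of clusters from another caller was not analysed here, and the part of depth in the absence of a cluster from a list was not tested.

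Just outside the rule, 18 intronic regions held clusters in 5 of the 6 libraries. Of these, 13 lacked A1dm replicate 1, the shortest list, and 3 lacked A1dm replicate 2. The remaining 2 lacked A1-HMW replicate 1 (MED15) and A1 replicate 1 (DROSHA). Among the first 10 by chromosome and position were regions in GGPS1, ASB3, SMC4, DROSHA, CDC23, CCNC, ZNF767P, RBM33 and UBE2W.

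The ends of the clusters were nearly fixed at 2 of the shared sites and moved by a few nucleotides at the others. In KIF14, the cluster was the same in all 6 libraries, 25 nt from 200550713 to 200550737. In UCHL5, 5 libraries had the same 23-nt cluster, and A1 replicate 2 had a 22-nt cluster that ended 1 nt earlier at its 3′ side. Across the libraries the 5′ end therefore did not move at either site, and the 3′ end moved by 0 nt in KIF14 and by 1 nt in UCHL5.

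In CUL3, 5 different clusters were listed among the 6 libraries. Both A1dm libraries had the same 25-nt cluster, from 225375526 to 225375550. The A1-HMW clusters were 26 nt in replicate 1 (225375526 to 225375551) and 23 nt in replicate 2 (225375529 to 225375551). The A1 clusters were 24 nt in replicate 1 (225375527 to 225375550) and 22 nt in replicate 2 (225375528 to 225375549). Because the gene is on the minus strand, the higher coordinate is the 5′ end, and this end took 3 positions over 2 nt. Both A1-HMW clusters began 1 nt upstream of both A1dm clusters, and the A1 clusters began 1 or 2 nt downstream of the A1-HMW clusters. The 3′ end took 4 positions over 3 nt. Both A1dm clusters reached 1 or 2 nt farther than both A1 clusters at this end, and the A1-HMW clusters held both the farthest and the nearest 3′ end.

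In IQCB1, 3 different clusters were listed. Both A1dm libraries had a 24-nt cluster from 121549571 to 121549594. The A1-HMW clusters were 25 nt in replicate 1 (121549571 to 121549595) and 24 nt in replicate 2, where the cluster was the same as in A1dm. The A1 clusters were 21 nt in replicate 1 (121549574 to 121549594) and 25 nt in replicate 2 (121549571 to 121549595). The short A1 replicate 1 cluster was the only one to lose bases at the 3′ side, 3 nt of them, and the groups overlapped.

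**Figure D1:**
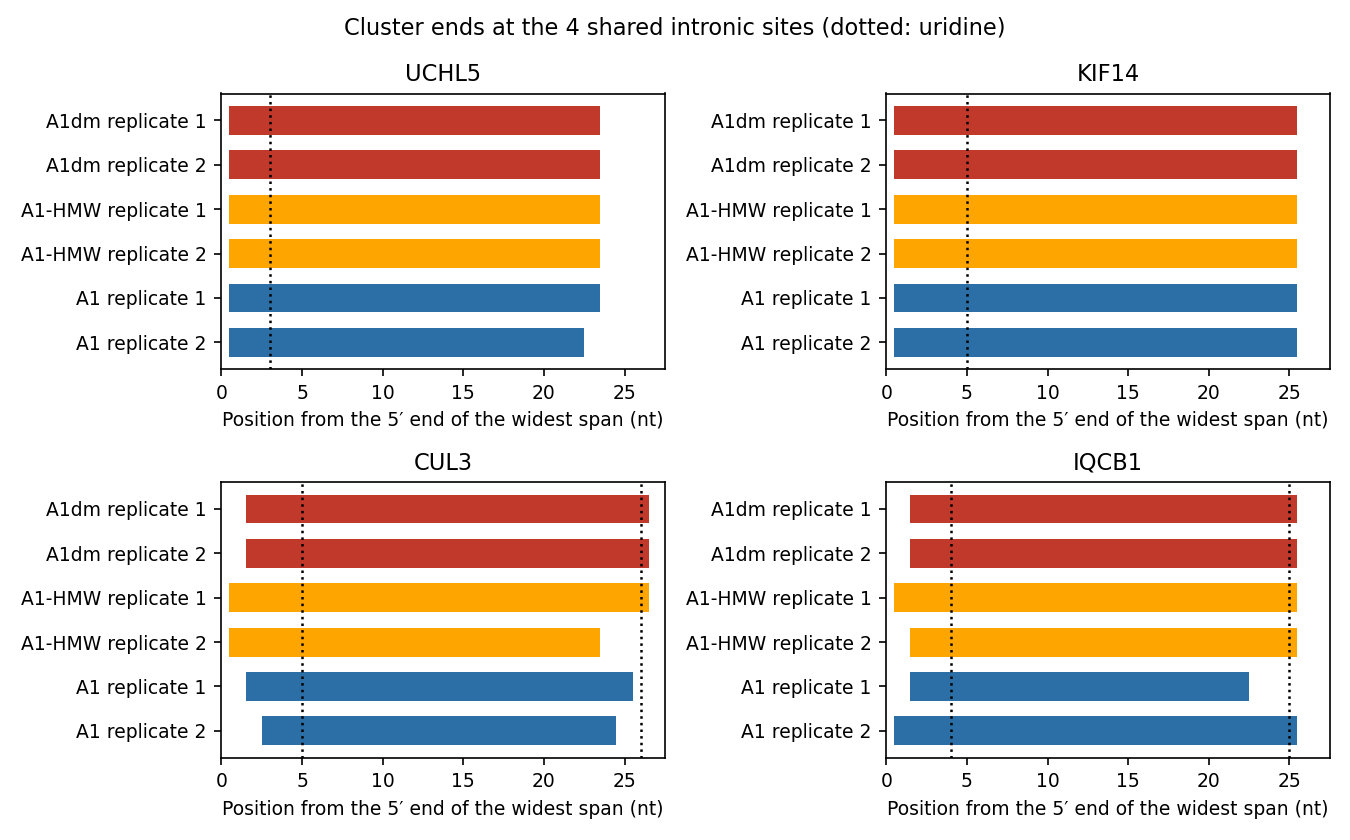
Extent of the cluster at each shared site in each library. The x axis is the position in nt from the 5′ end of the widest span, each bar is 1 cluster and dotted lines mark uridines. The KIF14 bars are identical at 25 nt, the UCHL5 bars differ by 1 nt, and the CUL3 bars run between 22 and 26 nt.

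Averaged over the 4 sites, the clusters of the A1dm replicates were 24.25 and 24.25 nt long, those of A1-HMW 24.75 and 23.75 nt, and those of A1 23.25 and 23.5 nt. The A1dm and A1-HMW libraries each lay above both A1 libraries. A1dm averaged 24.25 ± 0 nt and A1 23.4 ± 0.177 nt (SD, n = 2 each), a difference of 0.875 nt (exact two-sided permutation test, p = 0.333). A1-HMW averaged 24.25 ± 0.707 nt against the same A1 libraries (SD, n = 2 each), again a difference of 0.875 nt (exact permutation p = 0.333). The smallest p that 2 libraries against 2 allow is 0.333, so neither difference could pass 0.05. The A1-HMW difference was smaller than the 1-nt gap between the A1-HMW libraries, and it was 0.375 nt without A1-HMW replicate 1 and 1.375 nt without replicate 2. For reference, the median length of the other intronic clusters was 24 and 24.5 nt in A1dm, 24 and 25 nt in A1-HMW, and 24 and 25 nt in A1.

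How often the replicates of a group listed the very same cluster was then compared with other intronic regions found once in each replicate. At the shared sites both ends matched in 4 of 4 sites for A1dm, in 2 of 4 for A1-HMW (UCHL5 and KIF14), and in 1 of 4 for A1 (KIF14). Among the other intronic regions both ends matched in 3 of 10 for A1dm (30.0%, 95% Wilson interval 10.8 to 60.3%), in 32 of 87 for A1-HMW (36.8%, 27.4 to 47.3%), and in 930 of 2159 for A1 (43.1%, 41.0 to 45.2%). With 4 sites, the Wilson intervals at the shared sites were 51.0 to 100% for A1dm, 15 to 85% for A1-HMW and 4.56 to 69.9% for A1, and each interval covers counting error only. The 4 sites were selected and not drawn at random, so these intervals do not serve as a comparison with the other regions. In regions found in at least 5 libraries, the other intronic regions matched in 1 of 3 for A1dm, 6 of 18 for A1-HMW and 2 of 18 for A1. The difference between shared and other sites was not tested, because the sites were chosen for being present everywhere.

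**Figure D2:**
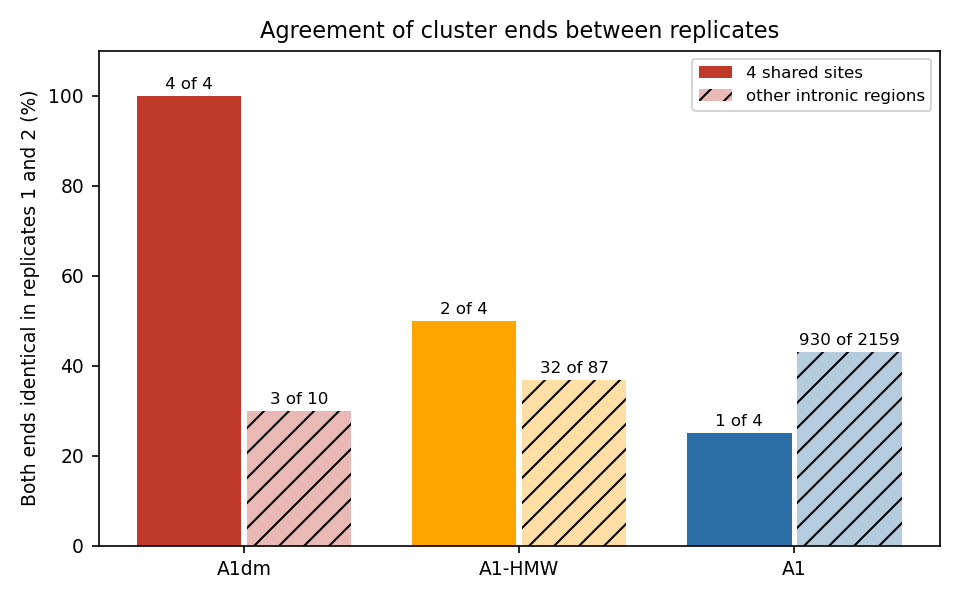
Share of sites at which replicates 1 and 2 of a group listed a cluster with both ends identical. The y axis is the share in percent, solid bars are the 4 shared sites and hatched bars are the other intronic regions found once in each replicate. The solid bars stand at 4 of 4 in A1dm, 2 of 4 in A1-HMW and 1 of 4 in A1, beside hatched bars at 3 of 10, 32 of 87 and 930 of 2159.

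The purine stretch of the shared sites was long and ended sharply. The longest unbroken run of A and G was 19 nt in UCHL5, 19 nt in KIF14, 20 nt in CUL3 and 20 nt in IQCB1, measured over the widest span. In the single clusters it was 18 to 20 nt, and all 24 clusters passed a run of 12. Of the other intronic clusters, 73.3 and 67.2% of those in A1dm passed it, 87.8 and 92.5% of those in A1-HMW, and 98.6 and 97.4% of those in A1. The median longest run of these clusters was 18 nt in both A1dm libraries, 18 and 19 nt in A1-HMW, and 19 nt in both A1 libraries. The runs of the shared sites were thus of the usual length for intronic clusters in these lists, and a run of this kind was least frequent among the other A1dm clusters.

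Outside the clusters the purine content was much lower. In the 60 nt upstream and downstream it was 43.3 and 56.7% in UCHL5, 56.7 and 50.0% in KIF14, 51.7 and 48.3% in CUL3, and 71.7 and 55.0% in IQCB1. IQCB1 was the exception among the 4, with a purine-rich upstream flank. In a 21-nt window at the cluster centre, purines made up 95.2% at each of the 4 sites, against means of 83.9% for the other intronic clusters of A1dm, 91.2% for A1-HMW and 93.6% for A1. These means include the clusters that did not pass a run of 12. Over the widest span, the purine content was 91.3% in UCHL5, 92.0% in KIF14, 92.3% in CUL3 and 92.0% in IQCB1. The median over other whole intronic clusters was close to this, at 90.9 and 89.3% in A1dm and 91.3% over all libraries.

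**Figure D3:**
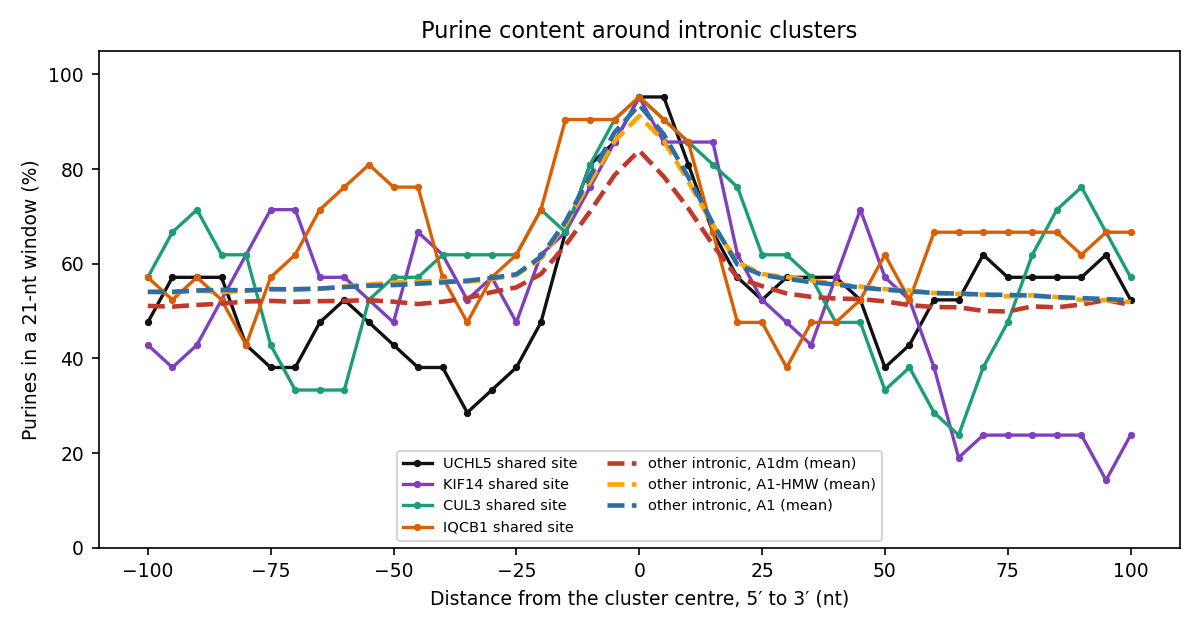
Purine content in a 21-nt window along the RNA around intronic clusters. The x axis is the distance from the cluster centre in nt, the y axis is the share of A and G in percent, solid lines are the 4 shared sites and dashed lines are means over the other intronic clusters of each group. All 4 solid lines reach 95.2% at the centre, where the dashed lines stand at 83.9% (A1dm), 91.2% (A1-HMW) and 93.6% (A1).

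The place of the uridine was also alike at the 4 sites, a feature chosen after the sequences had been seen and therefore not tested. In all 24 clusters the first T lay at position 3 to 5 from the 5′ end, and it was followed directly by a G and in all by 18 to 20 purines in a row. Counted from the 5′ end of the widest span, this T was at position 3 in UCHL5, 5 in KIF14, 5 in CUL3 and 4 in IQCB1. CUL3 and IQCB1 had another T at the far 3′ edge, at positions 26 and 25, which some libraries' clusters did not reach. It was inside both A1dm clusters, A1-HMW replicate 1 and neither A1 cluster in CUL3. In IQCB1 it was inside every cluster other than that of A1 replicate 1. KIF14 and UCHL5 had only the 5′ T. Of the 10116 other intronic clusters, 43.9% had their first T within 5 nt of the 5′ end, 27.1% also had at least 18 purines after it, and 21.4% also had the G next to it.

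Of the short motifs searched on the RNA strand, GAGGAA occurred within the common stretch of UCHL5, KIF14 and CUL3. In IQCB1 it ran past the 3′ end of the common stretch and lay in 5 of the 6 clusters, all but that of A1 replicate 1. Whole clusters with GAGGAA thus numbered 23 of 24 at the shared sites, and 33.0% of the other intronic clusters held it. By library that share was 20.8 and 24.5% in A1dm, 28.5 and 35.8% in A1-HMW, and 34.1 and 33.0% in A1. The pooled shares rest mostly on A1, which had 3706 and 5055 of the 10116 other intronic clusters. AGGAAG, which overlaps GAGGAA by 5 letters when both occur together as GAGGAAG, was in every cluster of KIF14 and CUL3, in 5 of 6 in IQCB1 and in 0 of 6 in UCHL5. That made 17 of 24 shared-site clusters, and 32.6% of the other intronic clusters held it. By library this was 24.2 and 24.1% in A1dm, 33.6 and 32.4% in A1-HMW, and 33.6 and 32.4% in A1. Clusters of 1 site share their sequence, so the counts at the shared sites stand for 4 sites and not for 24 independent ones. TAG, the DNA form of the UAG element, occurred in none of the 24 shared-site clusters and in 9.05% of the other intronic clusters. By library the latter was 9.17 and 15.7% in A1dm, 6.95 and 7.72% in A1-HMW, and 8.28 and 9.57% in A1. The count of TAG stops at the cluster edge. In KIF14 a TAG ran across the 5′ edge, with its G as the first base of the cluster. In UCHL5, CUL3 and IQCB1 a CAG ran across the 5′ edge of the widest span. The study's own PAR-CLIP motifs, from its filtered peaks, were AG-rich and similar in A1, A1-HMW and A1dm. Its discussion names YAG, with C or T first, as the minimal motif, citing other work. YAG was not counted here. In the printed windows TAG occurred 2 times in UCHL5, 5 times in KIF14, 3 times in CUL3 and 3 times in IQCB1. Of the windows of the same flank around other intronic clusters, 87.6% held TAG. TAGGG occurred in none of the 4 windows and in 15.9% of the others. These matches describe letters only.

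The 4 sites were not copies of one another. The longest word common to 2 of the common stretches was 9 nt, ATGGAAAAG in UCHL5 and CUL3 and AAAGGAGGA in CUL3 and IQCB1. KIF14 and CUL3 shared the 7-nt word GAGGAAG, and the other 3 pairs shared words of 5 or 6 nt. The middle 20 nt occurred at 1 place in the genome for UCHL5 and CUL3, at 2 for IQCB1 and at 3 for KIF14. Among the other intronic clusters of at least 20 nt, 64.3% had a middle 20-mer found at 1 place. The part of such repeated matches in the KIF14 and IQCB1 clusters was not tested.

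CUL3 alone of the 4 genes held further sites, which were not shared by all libraries. They are printed so that these 2 sites can be set beside the shared site of the same pre-mRNA. The orientation is the same, with capitals for the bases covered in every library that had the site.
CUL3 site in 4 libraries, chr2:225366681-225366826: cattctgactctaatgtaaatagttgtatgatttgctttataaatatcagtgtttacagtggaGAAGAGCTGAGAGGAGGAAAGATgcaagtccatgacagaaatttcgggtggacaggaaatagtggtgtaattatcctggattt
CUL3 site in 1 library, chr2:225418727-225418871: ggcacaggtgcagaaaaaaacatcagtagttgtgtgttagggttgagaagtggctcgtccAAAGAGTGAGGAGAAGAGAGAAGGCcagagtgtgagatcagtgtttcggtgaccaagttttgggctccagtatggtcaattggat
The first lay in intron 10 of 15, from 225366741 to 225366766, 8.76 kb downstream of the shared site and 968 nt from an annotated transcript end. It was listed in both A1-HMW and both A1 libraries and in neither A1dm library. Its clusters were 23 and 26 nt in A1-HMW, and 25 and 26 nt in A1, with the same 3′ end in all 4. The second lay in intron 2 of 15, from 225418787 to 225418811, 43.2 kb upstream of the shared site, as a 25-nt cluster in A1 replicate 2 only. The longest purine run was 14 nt at the 4-library site and 17 nt at the 1-library site. At the shared CUL3 site it was 20 nt over the widest span and 18 to 20 nt in single clusters. Their first T lay deeper in the cluster, at position 8 to 11 at the 4-library site and at position 7 at the 1-library site, against 3 to 5 at the shared site.

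Counted per library, the 4 genes held 0 and 0 clusters outside the shared sites in A1dm, 1 and 1 in A1-HMW, and 1 and 2 in A1. A1dm averaged 0 ± 0 and A1 1.5 ± 0.707 (SD, n = 2 each), a difference of -1.5 clusters (exact two-sided permutation test, p = 0.333, the smallest this design allows). A1-HMW averaged 1 ± 0 against the same A1 libraries, a difference of -0.5 clusters (SD, n = 2 each, exact permutation p = 1). The lists differ greatly in length, and per 1000 clusters the values were 0 and 0 in A1dm, 1.49 and 1.16 in A1-HMW, and 0.172 and 0.247 in A1. On that scale A1-HMW lay above A1, by 1.11 clusters per 1000. A1dm held none, in lists of 232 and 596 clusters. A count of 0 stays 0 on either scale, so the scaling does not correct A1dm for list length, whose part was not tested. These differences rest on 5 clusters in all, each of them in CUL3.

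**Figure D4:**
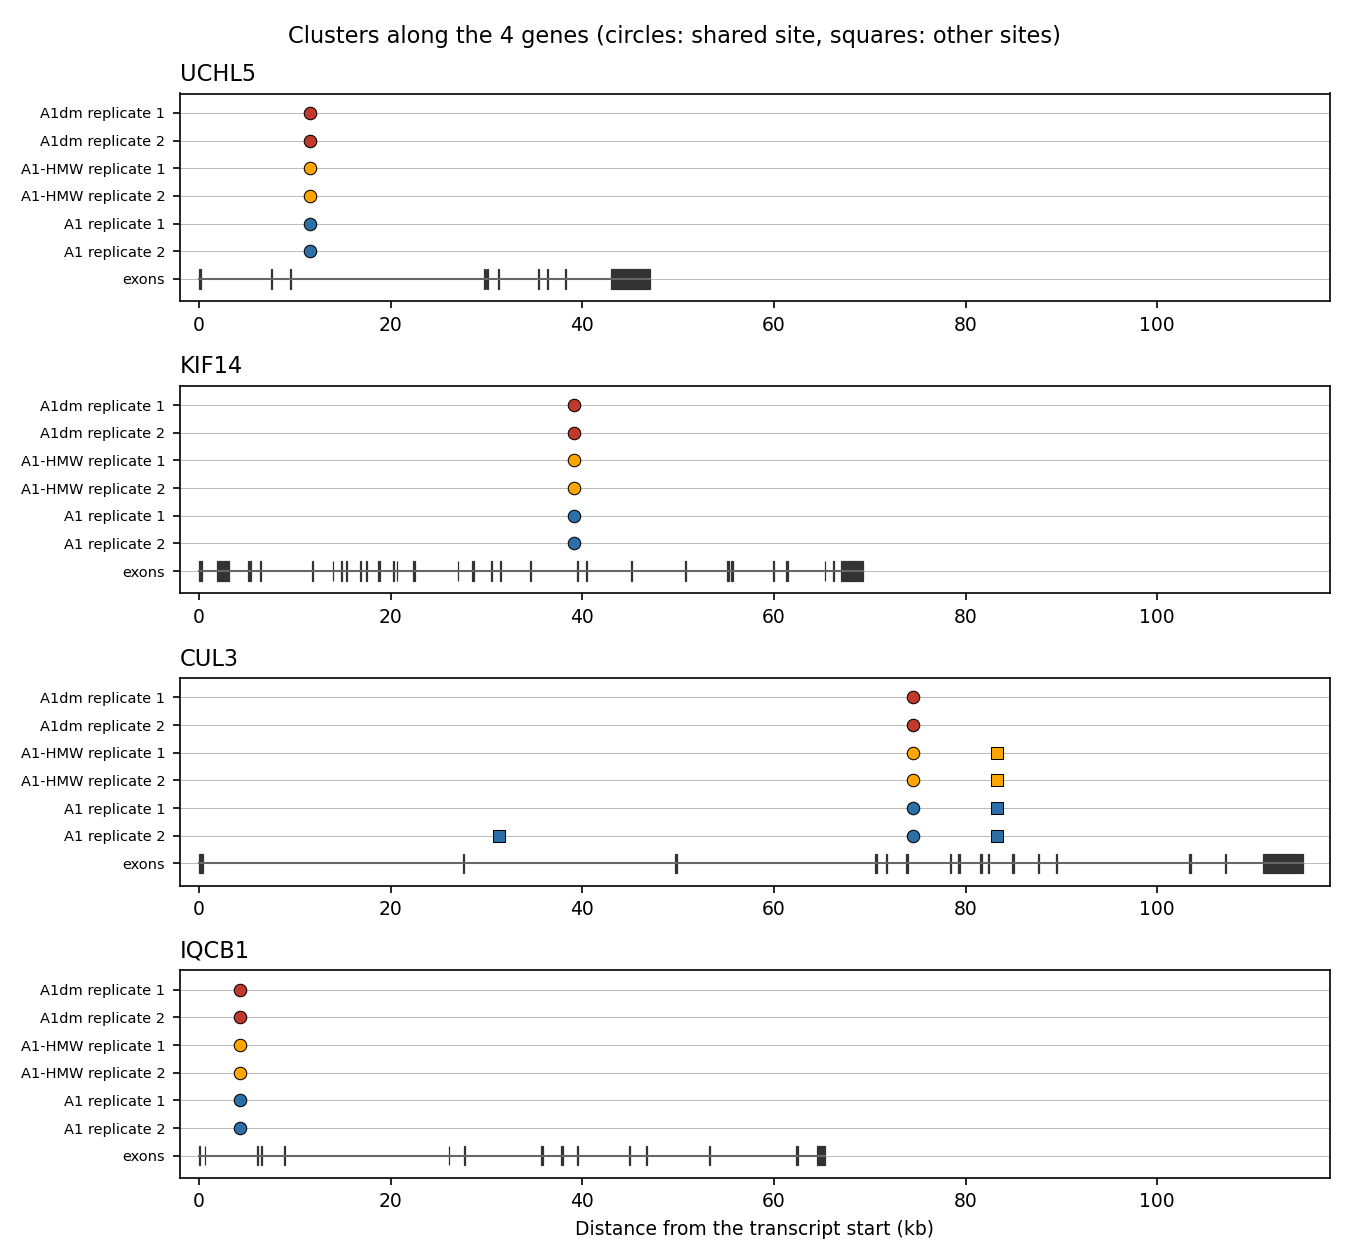
Clusters along the 4 genes by library, with the exons of one transcript as boxes. The x axis is the distance from the transcript start in kb, circles are clusters at the shared site and squares are other clusters. UCHL5, KIF14 and IQCB1 hold circles only, at 11.6, 39.1 and 4.31 kb, and CUL3 holds its circles at 74.5 kb with squares at 31.3 and 83.3 kb.

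The genes themselves were of ordinary size for genes with clusters. Their lengths were 47.8 kb for UCHL5, 69.3 kb for KIF14, 115 kb for CUL3 and 65.3 kb for IQCB1, against a median of 70.6 kb over genes with a region. UCHL5, KIF14 and IQCB1 held 1 region each, as did 62.5% of the 4622 protein-coding genes with a region, and CUL3 held 3, as 16.2% did with 3 or more. The next cluster of any library lay 45.4 kb away from the shared site of UCHL5, 71.4 kb from that of KIF14 and 144 kb from that of IQCB1. For CUL3 it lay 8.76 kb away and was the 4-library site of the same gene. Of the 16 genes with clusters in all 6 libraries, counted over all their regions, 6 reached this with 1 region. These 6 include UCHL5, KIF14 and IQCB1, chosen for it, and both SNRPD3 and an overlapping annotated gene that holds the same region. UBE2W and a gene that overlaps it are likewise both among the 16.

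The partners of these genes were looked up in 4 lists. Of 20149 protein-coding genes, 2.81% held a cluster in either A1dm library, 4.55% in either A1-HMW library and 21.6% in either A1 library. Of 36 genes of the proteasome and UCHL5 partners, 1 held a cluster in A1dm, 3 in A1-HMW and 12 in A1. None of them reached more than 3 libraries. PSMD14, a deubiquitinase of the proteasome lid, had clusters in A1dm replicate 2 and both A1 libraries. USP14, a proteasome-bound deubiquitinase, and PSMA1, a subunit of the core particle, had clusters in A1-HMW replicate 1 and both A1 libraries. PSMD11, a lid subunit, had clusters in A1-HMW replicate 2 and both A1 libraries.

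Of 43 kinesins and KIF14 partners, 2 held a cluster in A1dm, 2 in A1-HMW and 15 in A1. KIF1C, a transport kinesin, reached 4 libraries (A1dm replicate 2, A1-HMW replicate 1 and both A1), over 2 regions, neither of them intronic. KIF1B had clusters in A1dm replicate 1 and both A1 libraries, KIF11, the spindle kinesin, in A1-HMW replicate 2 and both A1 libraries, and KIF16B in both A1 libraries.

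Of 48 cullins and BTB adaptors, 3 held a cluster in A1dm, 6 in A1-HMW and 20 in A1. BTBD9, a BTB domain protein, reached 4 libraries, with 1 and 0 clusters in A1dm, 0 and 1 in A1-HMW, and 4 and 5 in A1. SPOP and KBTBD2, substrate adaptors of CUL3, each reached 3 libraries. BACH1, a BTB domain transcription factor, had 4 clusters in each A1 library and none in the others.

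Of 28 nephronophthisis genes and IQCB1 partners, 2 held a cluster in A1dm, 2 in A1-HMW and 13 in A1. CEP164, a protein of the centriole's distal appendages, reached 3 libraries, A1-HMW replicate 2 and both A1. SDCCAG8, ATXN10 and CEP83 had clusters in both A1 libraries only. The genes of these lists differ in length, with medians of 17.7 kb in the UCHL5 list, 55.5 kb in the KIF14 list, 46.2 kb in the CUL3 list and 87.9 kb in the IQCB1 list, and its part in these counts was not tested. No gene of the 4 lists had clusters in more than 4 libraries, while the 4 genes described here have them in 6 by choice. Clusters in all 6 libraries were rare in general, in 16 of 20149 protein-coding genes, so their lack in the lists is not a result about these partners.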

How the data were processed

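PAR-CLIP clusters from 6 libraries were used, with groups and replicate numbers taken from the sample labels. Nothing in the labels says that replicates came from separate cultures, although the study describes independent experiments. The permutation p-values therefore refer to relabellings of these libraries only. The study's methods name BBduk, removal of short reads, filtering of ribosomal RNA and STAR for mapping. The submitters' processing notes name Bowtie and hg19. Per the file headers, each deposited list held wavClusteR clusters annotated by HOMER with the Ensembl gene set of release 87, whereas the methods name PARalyzer for the study's own peaks. The score that the authors deposited was 0 in every line, and the other deposited values were positions, so these lists give no depth. Precision is limited by this lack, the list lengths (232 to 8100 clusters), the 2 libraries per group and the small number of sites.

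The listed start was 1 above the start in the cluster identifier in 100% of lines, and the identifier's start was used. Clusters were assigned by strand to genes of GENCODE release 44 lifted to GRCh37 and merged into regions by an overlap of at least 1 nt. The deposited gene names, those of the nearest transcription start, were used only to find members. Groups were compared over libraries with exact two-sided permutation tests at a threshold of 0.05. Shares carry 95% Wilson intervals. Alternatives were a wider overlap (0.5 of the shorter cluster), the listed start, clusters assigned by position, clusters per 1000, other run lengths, a replicate block and leaving out each library. Named were the 4 genes with all their clusters, the other regions in all 6 libraries, up to 10 intronic regions in 5 libraries by position, and up to 4 genes per list with clusters in the most libraries. An item that this rule names is not reported here. The members and lists were chosen with earlier results of these data known. Steps were tested on simulated data. Python 3.11.15, numpy 2.4.6, scipy 1.17.1 and matplotlib 3.10.9 were used.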

Additional observations from a re-analysis of the deposited data

How the results depend on the processing

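Of 39 alternative values for 6 results, 35 kept their direction and, where tested, their side of the threshold, or, for counts, stayed within 1.5 times. The side of the threshold was fixed in advance, since no p could pass 0.05 with these library numbers. Differences with 1 library left out had no test. The number of regions with a cluster in every library ranged from 9 to 31 when 1 library was left out, with 31 without A1dm replicate 1 and 15 without A1dm replicate 2, against 8 with all libraries, and each setting kept the 4 sites. The surplus of A1dm over A1 in cluster length ranged from 0.75 to 1 nt when 1 library was left out, and that of A1-HMW over A1 from 0.375 to 1.375 nt. For clusters outside the shared sites, the difference of A1dm from A1 ranged from -2 to -1 without single libraries and that of A1-HMW from A1 from -1 to 0, and it was 0 without A1 replicate 2. Per 1000 clusters, the difference of A1-HMW from A1 turned to 1.11, since the A1-HMW lists are shorter. That of A1dm from A1 was -0.210, where scaling cannot change the A1dm counts of 0. With the replicate number as a block, the differences were 0.875 nt and 0.875 nt in length and -1.5 and -0.5 clusters in number, with exact permutation p of 0.5, 0.5, 0.5 and 1, and 0.5 is the smallest that the block allows. The block could change no call, since no p could pass 0.05 with or without it. The labels do not tie a number to an experiment, whereas the study describes independent experiments with the A1 and A1-HMW bands both from WT immunoprecipitates, so whether a number marks a shared experiment is not settled by the sources used here. The A1dm libraries did not differ from each other at any of the 4 sites, and the deviations of A1-HMW and A1 had r = 0.269 over 4 sites, which has no test. Runs of 10 or 15 purines and the listed start left 24 of 24 shared-site clusters past the limit. The deposited lists carry no depth, which limits all statements on absence.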
